A study of Homo sapiens with 60 samples.

Results

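Human A549 cells, an established non-small cell lung carcinoma line of alveolar epithelial origin, were exposed for 24 h to hot-water extracts of ginger rhizome, and their RNA was sequenced. The comparison set 3 libraries treated with Zingiberis Rhizoma Recens, the pharmacopoeial name of fresh ginger, against 3 treated with Zingiberis Rhizoma, dried ginger. Both extracts were given at 500 µg/mL, the highest dose of each. These 6 of the study's 60 libraries were picked by their titles alone and not by any measured value. The 60 libraries form 20 groups of 3. Besides herbal extracts at up to 3 doses they include a DMSO vehicle group and a group given wortmannin, which is not a herbal extract. Both gingers were also given at 100 and 20 µg/mL. The vehicle is labelled 0.1% DMSO on the samples and 2% in the series' design text. According to the labels' protocols the plants were dried before extraction, so "fresh" and "dried" are used below as names of the 2 drugs. The labels do not say whether the 3 libraries of a group came from separate cultures, so the spread behind the p-values may be technical. It is the spread between libraries of the same group, estimated over all 20 groups and not from the 6 libraries alone.

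NF-kB is a family of transcription factors held in the cytoplasm by IkB proteins. Signals from Toll-like, interleukin-1 and tumour necrosis factor receptors lead to destruction of the inhibitor, and the released factor switches on chemokines, adhesion molecules and cytokines. It also switches on its own inhibitors, among them NFKBIA and TNFAIP3, which end the response. Lung epithelial cells use this pathway to call in white blood cells. Ginger's pungent phenols, the gingerols, are known to convert in part to shogaols on drying; the composition of the extracts was not analysed here.

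The dried ginger libraries held more RNA of NF-kB target genes than the fresh ginger libraries, with chemokines, ICAM1 and NF-kB's own inhibitors among them. The fresh ginger libraries held more RNA of KRT4, DDC, NR4A3, the 3 fibrinogen chains and some genes of cholesterol supply. In all, 122 of 17129 tested genes passed the test at an adjusted p under 0.05 (edgeR quasi-likelihood test, Benjamini-Hochberg), which is 0.712% and is referred to as called. Of these, 55 were higher (0.321%) and 67 lower (0.391%) with fresh than with dried ginger. In each of the 122, all 3 fresh libraries lay on one side of all 3 dried ones. Over all tested genes such separation was found in 7.14% in the higher and 6.51% in the lower direction. Differences were mostly small: 5 called genes were lower by at least 2-fold (CXCL8, ICAM1, CXCL1, CCL2 and TNFRSF9) and 1 higher (DYSF). TNFRSF9, a receptor of the tumour necrosis factor family, and DYSF, the muscle membrane repair protein dysferlin, lie outside the rule for named genes and were chosen after their values were seen. TNFRSF9 stood at 0.843, 1.20 and 1.11 CPM in the fresh and 2.36, 2.2 and 1.86 CPM in the dried libraries (log2 difference -1.02, adjusted p = 0.00439). DYSF stood at 1.14, 1.04 and 1.19 CPM against 0.622, 0.404 and 0.633 CPM (log2 difference 1.01, adjusted p = 0.0412). Neither TNFRSF9 nor DYSF was followed through the alternative fits that are given for the named genes. In a fit of the 18 ginger libraries alone, which share the first number of their library code, 58 genes were called, all of them among the 122; of 55 named genes 22 lost their call there. Without fresh replicate 1 the count was 73, of which 71 were among the 122.

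**Figure D1:**
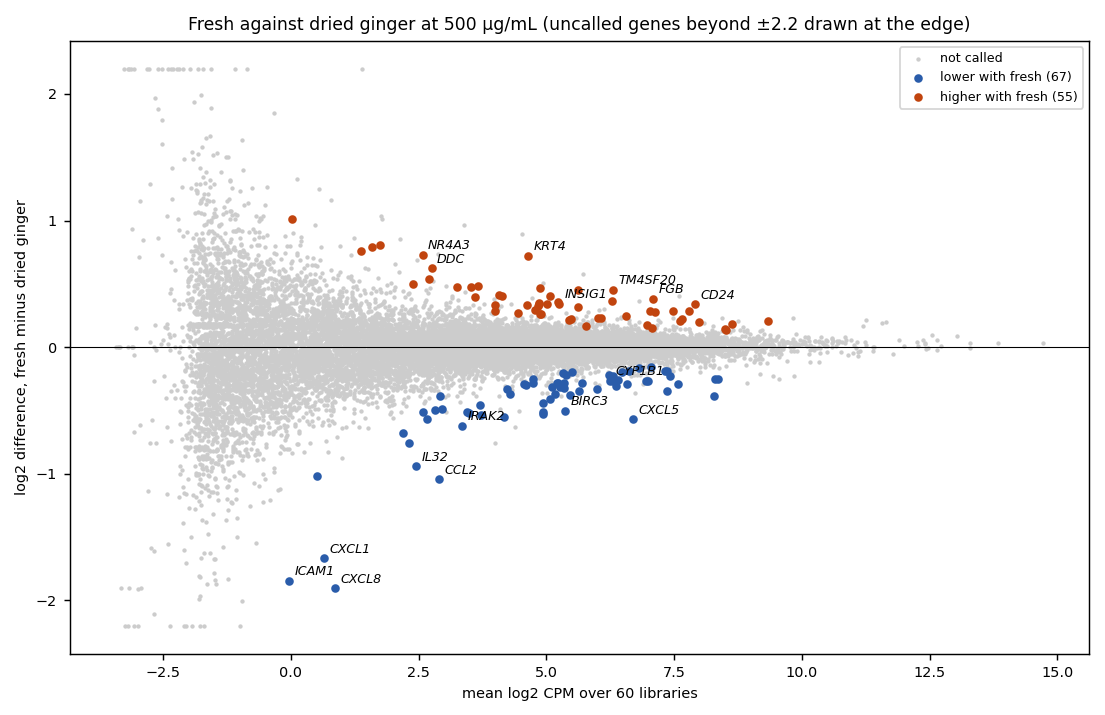
Each point is a tested gene, with its mean log2 CPM over 60 libraries on the x axis and its log2 difference, fresh minus dried ginger at 500 µg/mL, on the y axis. The 67 called genes lower with fresh ginger are blue and the 55 higher are orange; CXCL8, ICAM1 and CXCL1 lie lowest among the called genes, and most called differences are under 1 on the log2 scale.

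The 6 libraries held 18131425 to 24950762 estimated counts each, and all 60 held 17420373 to 36479629. Log2 CPM, the log2 of counts scaled to library size, correlated between replicates at 0.990 or more in these 2 groups. All 7 epithelial markers were tested and none was called, and their summed level was 7055 to 7425 CPM with fresh, 6255 to 6881 CPM with dried ginger and 7891 to 7955 CPM in vehicle. The groups did not overlap in that sum, which KRT7, KRT8 and KRT18 dominate, and its part in the results was not tested. Of 10 markers of alveolar type II cells, 3 were tested, none was called, and the surfactant genes SFTPA1 and SFTPA2 had no count in the 6 libraries. That list summed to 20.6 to 24.6 CPM in the fresh, 25.5 to 26.7 CPM in the dried and 22.1 to 23.7 CPM in the vehicle libraries, most of it ABCA3. Among 14 blood cell markers, those with no count included PTPRC, CD3E, CD3D, MS4A1, CD163 and HBB, and the list summed to 8.71 to 11 CPM in the fresh and 11.1 to 13.6 CPM in the dried libraries, most of it CD68, and 6.10 to 9.06 CPM in vehicle. The fresh and dried sums did not overlap in these 2 lists either, no member was called, and their part was not tested. The 10 markers of fibroblasts and endothelium, of which DCN and KDR had no count, summed to 1.76 to 2.87 CPM with fresh ginger, 2.2 to 2.52 CPM with dried ginger and 2.64 to 2.92 CPM in vehicle. In bulk RNA, a lower level in every cell and loss of the cells that express a gene cannot be told apart.

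The promoters of 5 of the genes that were lower with fresh ginger are shown because each holds a sequence that NF-kB is known to bind. The sequences come from RefSeq (GRCh38.p14) and give the 250 bases before the annotated start, 5′ to 3′ on the gene's strand. CXCL8 lies at chr4:73740319-73740568 (+), CXCL1 at chr4:73869143-73869392 (+), CXCL5 at chr4:73998678-73998927 (-), ICAM1 at chr19:10270870-10271119 (+) and NFKBIA at chr14:35404750-35404999 (-). Capitals mark a match to GGAATTTCC, or to GGG followed by any 2 bases and TTTCC, on either strand. The motifs can overlap, since the second contains the first when the 2 free bases are AA.
CXCL8: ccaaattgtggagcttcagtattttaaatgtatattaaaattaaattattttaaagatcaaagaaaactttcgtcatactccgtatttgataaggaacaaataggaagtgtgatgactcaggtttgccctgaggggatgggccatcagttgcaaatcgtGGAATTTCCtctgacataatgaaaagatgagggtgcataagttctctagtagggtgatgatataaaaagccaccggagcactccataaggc
CXCL1: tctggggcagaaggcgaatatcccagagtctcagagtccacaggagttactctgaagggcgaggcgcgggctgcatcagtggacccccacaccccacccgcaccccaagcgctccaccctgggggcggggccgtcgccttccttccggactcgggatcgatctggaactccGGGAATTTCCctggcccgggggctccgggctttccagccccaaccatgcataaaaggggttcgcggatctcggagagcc
CXCL5: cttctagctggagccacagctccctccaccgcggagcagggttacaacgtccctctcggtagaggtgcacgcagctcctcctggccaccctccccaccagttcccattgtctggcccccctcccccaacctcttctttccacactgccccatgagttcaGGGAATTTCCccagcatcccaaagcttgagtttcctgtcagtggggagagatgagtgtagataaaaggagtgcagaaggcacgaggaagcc
ICAM1: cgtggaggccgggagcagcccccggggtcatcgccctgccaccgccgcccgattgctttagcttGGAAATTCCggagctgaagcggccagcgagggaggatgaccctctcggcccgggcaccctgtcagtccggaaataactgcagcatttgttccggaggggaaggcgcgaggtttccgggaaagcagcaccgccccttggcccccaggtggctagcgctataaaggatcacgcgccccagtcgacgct
NFKBIA: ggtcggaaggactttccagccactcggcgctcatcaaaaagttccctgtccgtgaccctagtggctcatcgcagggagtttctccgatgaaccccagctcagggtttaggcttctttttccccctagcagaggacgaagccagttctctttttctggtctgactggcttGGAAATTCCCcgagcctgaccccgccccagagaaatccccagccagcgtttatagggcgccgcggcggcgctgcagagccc
The matches begin 91 bases before the start in CXCL8 and CXCL5, 79 in CXCL1, 81 in NFKBIA and 186 in ICAM1. In CXCL8 and ICAM1 the match is to GGAATTTCC alone, and in ICAM1 and NFKBIA it is on the opposite strand. Counting the 300 bases from 250 before to 50 after any listed start, 14 of the 52 lower genes with a promoter in the table held either motif (26.9%). Among the higher genes it was 1 of 40 (2.5%), DOK4, and among all tested genes with a promoter 366 of 11737 (3.12%). The 14 included BIRC3, IL32, NFKB2, TNFAIP3, TNIP1 and TNFRSF9. Among genes with 1 listed start the shares were 30.3% of 33 lower genes, 0 of 23 higher genes and 2.51% of 8463 tested genes. A match is a description of these letters and not evidence of binding in these cells.

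The chemokines, secreted proteins that attract neutrophils and monocytes, were among the genes with the largest called differences. CXCL8, which encodes the neutrophil attractant interleukin-8, stood at 1.59, 1.36 and 0.851 CPM in the fresh and 4.67, 5.30 and 4.11 CPM in the dried libraries. Every dried library was above every fresh library, and the fresh libraries overlapped the vehicle (0.877 ± 0.282 CPM, SD, n = 3). The log2 difference was -1.90 (SE 0.21, adjusted p = 2.76e-08). CXCL1, another neutrophil attractant, stood at 1.44, 1.47 and 0.723 CPM in the fresh and 3.29, 4.31 and 3.76 CPM in the dried libraries. Its log2 difference was -1.67 (SE 0.21, adjusted p = 1.4e-06), and the third fresh library was the lowest of the 6 in both genes. CCL2, the main attractant of monocytes, stood at 8.04, 6.54 and 7.15 CPM in the fresh and 14.2, 15.8 and 14.9 CPM in the dried libraries (log2 difference -1.05, SE 0.13, adjusted p = 1.4e-06). CXCL5, which also attracts neutrophils, stood at 106, 114 and 102 CPM in the fresh and 160, 164 and 152 CPM in the dried libraries. Its log2 difference of -0.57 (SE 0.05) had the smallest adjusted p of all genes, 1.63e-10. Of 8 chemokines tested, these 4 were called lower (0.391% of all tested genes) and none higher. The median log2 difference was -0.60 against 0.00 over all tested genes. CXCL3 and CXCL2 were not called, with log2 differences of -0.63 (adjusted p = 0.18) and -0.39 (adjusted p = 0.35); their sequences resemble CXCL1, so estimated counts may be shared among the 3. CXCL16 stood at 0.14 (adjusted p = 0.66). Another 6 chemokines of the list were not tested, all at or below 0.55 CPM in the 6 libraries.

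Among cytokines and effector genes of NF-kB, 7 of 15 tested members were called lower (0.391% of all tested genes) and none higher. Their median log2 difference was -0.22. ICAM1, the adhesion molecule that leukocytes grip, stood at 0.496, 0.708 and 0.596 CPM in the fresh and 2.09, 2.42 and 1.98 CPM in the dried libraries. The log2 difference was -1.85 (SE 0.26, adjusted p = 7.11e-06), and the fresh libraries overlapped the vehicle (0.540 to 0.878 CPM). IL32, a cytokine that induces other inflammatory genes, stood at 3.82, 3.92 and 3.40 CPM in the fresh and 6.36, 7.18 and 7.79 CPM in the dried libraries (log2 difference -0.94, SE 0.15, adjusted p = 0.000105). Its fresh libraries were below all 3 vehicle libraries and its dried libraries above them. C3, the central complement protein, stood at 30.8, 28.7 and 31.7 CPM in the fresh and 46.4, 43.8 and 41.3 CPM in the dried libraries (log2 difference -0.53, adjusted p = 0.000283). Smaller differences were called for the urokinase PLAU at -0.28 (adjusted p = 0.000109), TNFAIP2 at -0.25 (adjusted p = 0.00134), the macrophage growth factor CSF1 at -0.22 (adjusted p = 0.0232) and the mitochondrial superoxide dismutase SOD2 at -0.20 (adjusted p = 0.0053). CSF1 lost its call without fresh replicate 1 (adjusted p = 0.0873), fresh replicate 2 (0.225) or dried replicate 3 (0.398), and SOD2 without dried replicate 1 (0.0688) or fresh replicate 3 (0.0875). Both lost it in the fit of the 18 ginger libraries (0.261 for CSF1 and 0.125 for SOD2). PLAU and TNFAIP2 kept their calls there, but not with the replicate number as a block within these libraries. PTGS2, the inducible cyclooxygenase, was not called (log2 difference -0.31, adjusted p = 0.57), nor was LIF, a cytokine of the interleukin-6 family (-0.11, adjusted p = 0.78). The interleukins IL1A, IL1B and IL6 and TNF were among 11 members not tested, all at or below 0.321 CPM.

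The subunits of NF-kB and its feedback inhibitors showed smaller differences of the same sign. Of these, 18 of 18 were below 0 (48.9% of all tested genes), 7 were called lower (0.391% of all), and the median was -0.25. RELB, a subunit of the alternative NF-kB pathway, stood at 14.9, 14.7 and 16.5 CPM in the fresh and 22.6, 22.8 and 22.5 CPM in the dried libraries (log2 difference -0.56, SE 0.09, adjusted p = 0.000241). NFKB2, its partner, differed by -0.33 (adjusted p = 0.000952). BIRC3, an inhibitor of cell death that also marks signalling proteins with ubiquitin, stood at 34.6, 36.9 and 37.6 CPM in the fresh and 51.4, 54.6 and 48.9 CPM in the dried libraries (log2 difference -0.50, SE 0.06, adjusted p = 1.21e-07). TNFAIP3, the enzyme A20 that shuts the pathway down, stood at 5.80, 4.96 and 5.32 CPM in the fresh and 7.73, 8.12 and 7.95 CPM in the dried libraries (log2 difference -0.56, adjusted p = 0.0019). NFKBIA, the IkB-alpha inhibitor, stood at 43.4, 48.9 and 42.8 CPM in the fresh and 56.0, 57.3 and 58.5 CPM in the dried libraries (log2 difference -0.35, adjusted p = 0.00262). The kinase IKBKE differed by -0.39 (adjusted p = 0.0112) and TNIP1, which works with A20, by -0.26 (adjusted p = 0.000364). Leaving out fresh replicate 1 or 3 raised the adjusted p of NFKBIA to 0.0617 or 0.0642. Leaving out fresh replicate 1 or dried replicate 3 raised that of IKBKE to 0.206 or 0.0694. Neither was called in the fit of the 18 ginger libraries (adjusted p = 0.111 for NFKBIA and 0.195 for IKBKE). TNFAIP3 and NFKB2 kept their calls there, but not with the replicate number as a block within these libraries. The subunit RELA differed by -0.01 (means of 77.3 and 77.7 CPM, adjusted p = 1) and NFKB1 by -0.24 (adjusted p = 0.077).

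Upstream of NF-kB, 1 of 20 tested receptors and adaptors was called (0.712% of all tested genes). IRAK2, a kinase of the interleukin-1 and Toll-like receptor complex, stood at 9.47, 9.86 and 9.36 CPM in the fresh and 15.8, 13.9 and 14.4 CPM in the dried libraries (log2 difference -0.62, SE 0.08, adjusted p = 1.4e-06). The median of the list was -0.03. The abundant members TNFRSF1A, the main tumour necrosis factor receptor, and IRAK1 were not called, at 0.03 and -0.03 (adjusted p = 1 for both). TLR2, TLR4 and TLR5 were not tested and stood at or below 0.301 CPM. Over the 3 NF-kB lists together, 18 of 41 tested genes were called lower (43.9%, against 0.391% of all tested genes). Of the 41, 38 were below 0 (92.7%, against 48.9% of all tested genes). These lists were drawn up with earlier results of these libraries known, so the counts are a description.

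**Figure D2:**
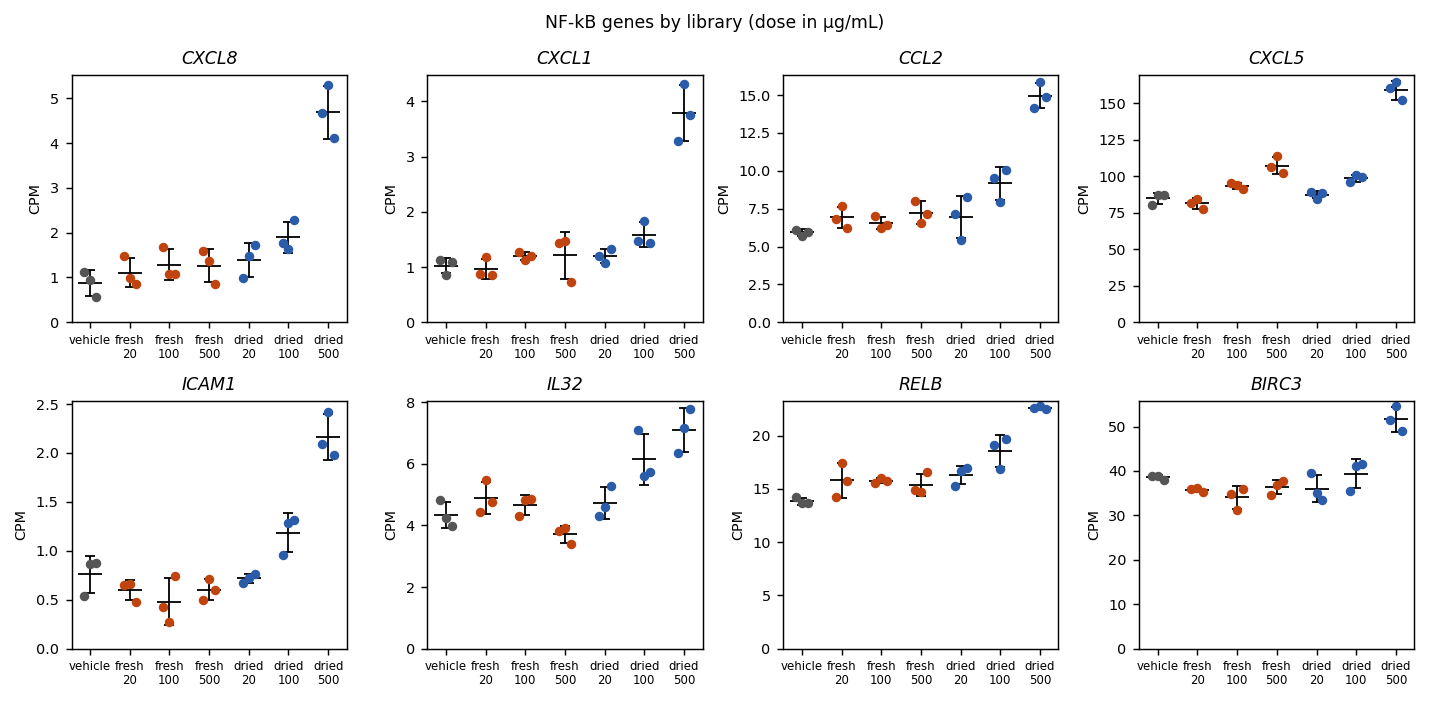
CPM of 8 NF-kB target genes in each library (points), with mean and SD (bars, n = 3), in vehicle (grey), fresh ginger (orange) and dried ginger (blue) at 20, 100 and 500 µg/mL. At 500 µg/mL the 3 dried libraries lie above the 3 fresh libraries in every panel, and the fresh libraries of CXCL8 (0.851 to 1.59 CPM) stay near the vehicle.

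Other genes lower with fresh ginger included matrix, adhesion and signalling genes. Of 24 tested TGF-beta and matrix genes, 3 were called lower (0.391% of all tested genes) and none higher, and the median was -0.13. Among them was COL4A2, a basement membrane collagen, at 135, 132 and 139 CPM in the fresh and 152, 155 and 154 CPM in the dried libraries (log2 difference -0.19, adjusted p = 0.0412). COL4A2 lost its call without any one of fresh replicates 1 and 2 and dried replicates 1, 2 and 3 (adjusted p from 0.0688 to 0.194). CDCP1, a surface protein, stood at 3.72, 4.20 and 5.32 CPM in the fresh and 7.56, 7.63 and 7.40 CPM in the dried libraries (log2 difference -0.76, adjusted p = 0.00577), and without fresh replicate 1 its adjusted p was 0.108. EFNA1, a membrane ligand of Eph receptors, differed by -0.52 (adjusted p = 0.00211, and 0.0685 without fresh replicate 3) and the secreted protein C1QTNF1 by -0.52 (adjusted p = 0.000105). MARCHF4, a ubiquitin ligase, differed by -0.54 (adjusted p = 0.00327), and lost its call without fresh replicate 3 (0.0642) or dried replicate 3 (0.0582). NKILA, a long non-coding RNA known to bind NF-kB, stood at 2.43, 2.29 and 2.55 CPM in the fresh and 3.87, 3.46 and 4.31 CPM in the dried libraries (log2 difference -0.68, adjusted p = 0.00262, and 0.0541 without dried replicate 3). In the fit of the 18 ginger libraries the adjusted p was 0.205 for CDCP1, 0.0785 for NKILA, 0.123 for MARCHF4 and 0.246 for COL4A2. EFNA1 kept its call there, but not with the replicate number as a block within these libraries. NKILA is annotated as an antisense transcript, and the strand setting of the counting is unstated in the sources, so reads of the opposite strand may be among its counts.

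The transcription factor genes FOSL1 and JUN, parts of AP-1, were lower with fresh ginger by 0.41 and 0.31 on the log2 scale (adjusted p = 0.000429 and 0.00226). FOSL1 stood at 37.0, 34.1 and 33.0 CPM in the fresh and 47.3, 41.2 and 49.2 CPM in the dried libraries, and JUN at 29.2, 32.6 and 32.8 CPM against 39.9, 38.2 and 39.4 CPM. JUN missed the threshold without fresh replicate 1 (adjusted p = 0.0826). FOS and the abundant MYC were not called (0.13 and 0.02, adjusted p = 1 for both). Of 9 tested targets of AHR, the receptor for dioxin-like compounds, 2 were called lower with fresh ginger (0.391% of all tested genes). They were TIPARP, the feedback inhibitor of AHR (-0.38, adjusted p = 0.00262), and CYP1B1 (-0.27, adjusted p = 0.0131). CYP1B1 stood at 125, 123 and 124 CPM in the fresh, 160, 147 and 140 CPM in the dried and 54.8 ± 1.54 CPM in the vehicle libraries, so both gingers lay above the vehicle. It lost its call without dried replicate 1 (adjusted p = 0.198) or fresh replicate 2 (0.0559). In the fit of the 18 ginger libraries neither was called (adjusted p = 0.0612 for TIPARP and 0.135 for CYP1B1). CYP1A1 was not called (-0.37, adjusted p = 0.75). The tight junction gene CLDN1 differed by -0.27 (adjusted p = 0.000846). It was 1 of 2 called genes of 17 epithelial and mesenchymal state genes (0.712% of all tested genes). CLDN1 lost its call with the replicate number as a block within the 18 ginger libraries. PHLDA1 was the 1 called of 18 tested ERK feedback genes (0.712% of all tested genes). It differed by -0.17 (adjusted p = 0.00537, 0.107 without fresh replicate 1, and 0.112 in the fit of the 18 ginger libraries).

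Among genes higher with fresh ginger, KRT4, a keratin of stratified epithelia, had the smallest adjusted p. It stood at 25.5, 23.2 and 25.7 CPM in the fresh, 15.2, 14.9 and 15.0 CPM in the dried and 26.5, 27.6 and 28.6 CPM in the vehicle libraries. The dried libraries were far below both other groups, and the log2 difference was 0.72 (SE 0.07, adjusted p = 1.76e-09). It was the 1 called keratin of 11 tested (0.712% of all tested genes). The abundant KRT8 and KRT18 were not called (0.19 and 0.21, adjusted p = 0.46 and 0.55). DDC, the enzyme that makes dopamine and serotonin from their amino acid precursors, stood at 9.72, 10.1 and 9.78 CPM in the fresh, 7.24, 6.46 and 5.58 CPM in the dried and 7.30 ± 0.177 CPM in the vehicle libraries (log2 difference 0.62, SE 0.09, adjusted p = 8e-06). TM4SF20, a membrane protein, stood at 109, 105 and 101.1 CPM in the fresh and 81.0, 74.4 and 74.9 CPM in the dried libraries (log2 difference 0.45, SE 0.06, adjusted p = 2.28e-06). For DDC and TM4SF20 the fresh ginger mean was the highest of all 20 groups. SLC45A4, a solute carrier, averaged 47.1 ± 2.96 CPM in the fresh and 34.4 ± 1.23 CPM in the dried group (SD, n = 3; log2 difference 0.45, adjusted p = 7.83e-05). SMOC1, a secreted matrix protein, differed by 0.48 (13.3 ± 0.333 against 9.51 ± 0.27 CPM, adjusted p = 0.000836). OAS1, an enzyme of antiviral defence, was the 1 called of 18 tested interferon-stimulated genes (18.3 ± 1.5 against 13.8 ± 0.224 CPM, log2 difference 0.41, adjusted p = 0.000683).

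The nuclear receptor genes NR4A3 and NR4A1, which cells induce quickly on stimulation, were higher with fresh than with dried ginger but below the vehicle in both. NR4A3 stood at 4.76, 4.52 and 5.06 CPM in the fresh, 3.16, 2.24 and 3.24 CPM in the dried and 8.74 ± 0.413 CPM in the vehicle libraries (log2 difference 0.73, SE 0.17, adjusted p = 0.0132). NR4A1 stood at 18.3, 18.4 and 16.6 CPM in the fresh, 14.5, 14.6 and 15.2 CPM in the dried and 37.0 ± 2.28 CPM in the vehicle libraries (log2 difference 0.26, adjusted p = 0.0395). NR4A3 missed the threshold without fresh replicate 1 (adjusted p = 0.0545), dried replicate 2 (0.182) or fresh replicate 3 (0.0794). NR4A1 missed it without any one library other than fresh replicate 3 (adjusted p from 0.0939 to 0.331). In the fit of the 18 ginger libraries neither was called (adjusted p = 0.205 for NR4A3 and 0.18 for NR4A1). Both gingers' levels of NR4A1 and NR4A3 did not overlap the vehicle's.

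A further 6 genes higher with fresh ginger lost their calls when single libraries were left out, with differences of the same sign. In the fit of the 18 ginger libraries SAMD11 stayed called (adjusted p = 0.0464), but not with the replicate number as a block within them. In that fit without the block the adjusted p was 0.279 for RASA4, 0.279 for SPDEF, 0.0695 for CYP4F12, 0.256 for FST and 0.195 for SNAI1. RASA4, a regulator of Ras, differed by 0.79 (3.63 ± 0.359 against 2.12 ± 0.503 CPM, adjusted p = 0.0313). It has a near-identical copy, RASA4B, with which reads may be shared, and it lost its call without any one fresh library or dried replicate 3 (adjusted p from 0.0559 to 0.422). The epithelial transcription factor SPDEF differed by 0.53 (adjusted p = 0.0412), and lost its call without fresh replicate 1 or 3 or dried replicate 2 or 3 (0.119 to 0.53). The fatty acid hydroxylase CYP4F12 differed by 0.50 (adjusted p = 0.0128; 0.0538 to 0.187 without dried replicate 1 or 3 or fresh replicate 2 or 3). The activin inhibitor FST differed by 0.48 (adjusted p = 0.0332; 0.115 to 0.429 without any one library other than fresh replicate 3). SAMD11 differed by 0.46 (26.0 ± 0.833 against 18.8 ± 0.301 CPM, adjusted p = 0.0156), and missed the threshold without any one of the 6 libraries (0.0559 to 0.123), with log2 differences of 0.44 to 0.48. SNAI1, a repressor that drives loss of epithelial character, differed by 0.33 (17.2 ± 0.643 against 13.7 ± 1.68 CPM, adjusted p = 0.0061; 0.0747 to 0.157 without fresh replicate 2 or dried replicate 1 or 2).

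**Figure D3:**
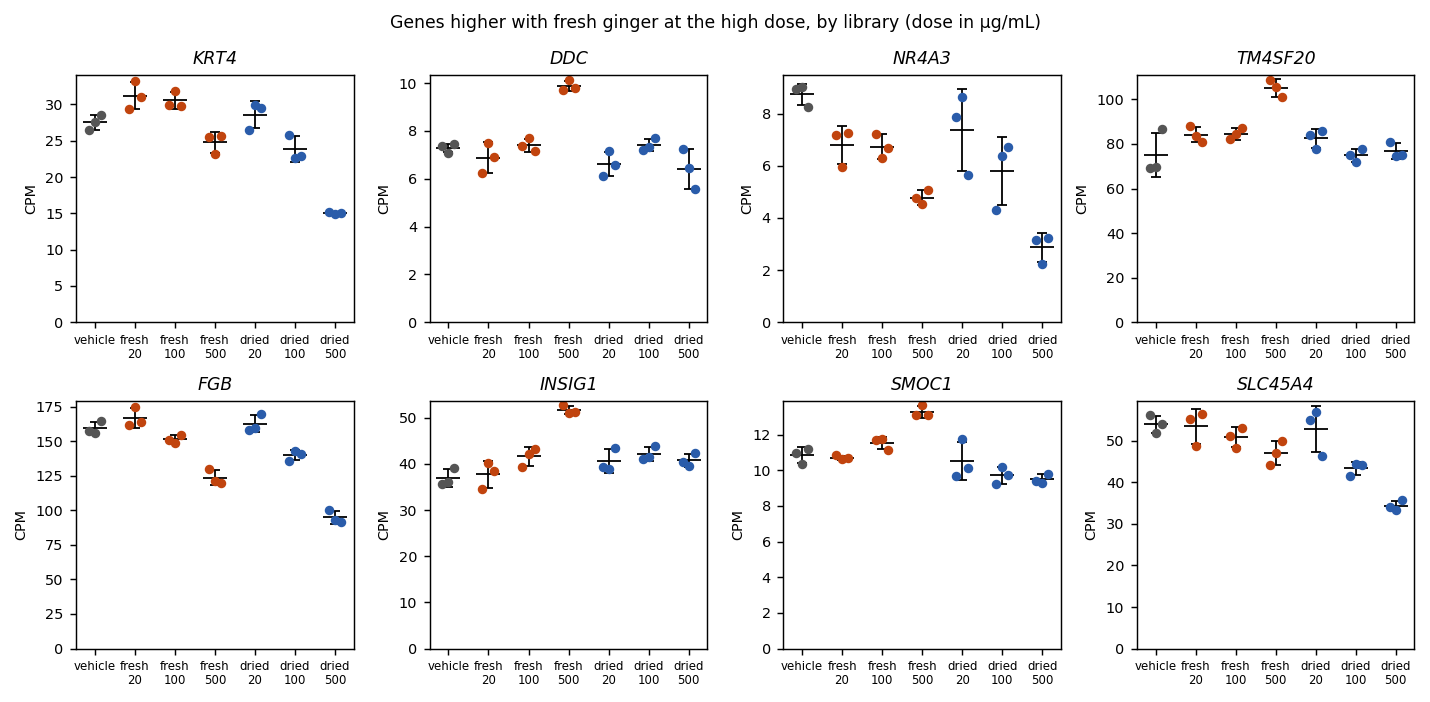
CPM of 8 genes higher with fresh ginger in each library (points), with mean and SD (bars, n = 3), in vehicle (grey), fresh ginger (orange) and dried ginger (blue) at 20, 100 and 500 µg/mL. In KRT4 the 3 dried libraries at 500 µg/mL (14.9 to 15.2 CPM) lie far below all other libraries shown, while in DDC, TM4SF20 and INSIG1 the 3 fresh libraries at 500 µg/mL lie above the dried and vehicle libraries.

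Of 25 tested genes of cholesterol synthesis and uptake, 4 were called higher with fresh ginger (0.321% of all tested genes) and none lower. Their median log2 difference was 0.12, and 24 were above 0, against 8737 of all 17129 tested genes. The list was drawn up with earlier results of these data known, so the counts are a description. INSIG1, which holds the sterol sensor in place and is itself induced when sterols are low, stood at 52.8, 51.1 and 51.2 CPM in the fresh, 40.4, 39.6 and 42.4 CPM in the dried and 37.0 ± 1.95 CPM in the vehicle libraries (log2 difference 0.34, SE 0.05, adjusted p = 7.85e-05). The cholesterol carrier STARD4 differed by 0.30 (adjusted p = 0.0143) and the sterol oxidase MSMO1 by 0.21 (adjusted p = 0.024). STARD4 lost its call without fresh replicate 1 or 3 or dried replicate 1 or 3 (0.0544 to 0.1), and MSMO1 without any one library other than fresh replicate 2 (0.0575 to 0.445). FADS2, a desaturase of polyunsaturated fatty acids, was the 1 called of 12 tested fatty acid synthesis genes (457 ± 9.05 against 403 ± 10.9 CPM, log2 difference 0.18, adjusted p = 0.0112). It lost its call without dried replicate 1 or 2 or fresh replicate 3 (0.0686 to 0.0799). In the fit of the 18 ginger libraries the adjusted p was 0.251 for FADS2, 0.111 for STARD4 and 0.207 for MSMO1.

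The 3 fibrinogen chain genes, which lie side by side on chromosome 4 and encode the clotting protein, were all higher with fresh ginger. FGB stood at 130, 121 and 120 CPM in the fresh, 100.5, 92.7 and 91.5 CPM in the dried and 160 ± 4.61 CPM in the vehicle libraries (log2 difference 0.38, SE 0.05, adjusted p = 1.4e-06). FGA stood at 113, 115 and 111 CPM in the fresh and 91.8, 95.6 and 90.2 CPM in the dried libraries (log2 difference 0.29, adjusted p = 0.000126), and FGG at 75.6, 70.8 and 69.3 CPM against 57.8, 54.5 and 55.3 CPM (log2 difference 0.36, adjusted p = 0.00377). For all 3 the order was vehicle, fresh, dried, and the 3 groups did not overlap in any of them. FGG lost its call without fresh replicate 1 (adjusted p = 0.0934) or dried replicate 2 (0.0508). Of 16 tested acute phase and coagulation genes, the 3 fibrinogen genes were called higher (0.321% of all tested genes). Called lower were 2 (0.391% of all), C3 among them. The median of the list was -0.37, so the 3 fibrinogen genes differed in sign from it.

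DDC was the 1 called gene of 16 tested liver and gut-like genes (median 0.12) and of 10 tested amine synthesis and neuroendocrine genes (median -0.04), both of which hold it. Over all tested genes 0.712% were called. The lists without a called gene comprised the integrated stress response (29 tested genes, median 0.03), endoplasmic reticulum stress (20, 0.06), the heat shock response (19, -0.03), NRF2 targets (25, 0.06), aldo-keto reductases (9, 0.17), p53 targets (20, 0.00), mitosis (25, 0.02), DNA replication (24, 0.03), hypoxia (17, 0.04) and lysosome and autophagy (24, -0.02). Metallothioneins (5, 0.09), mitochondrially encoded genes (13, -0.00), PPAR targets (10, 0.01) and heat- and pungency-sensing TRP channels (5, -0.24) gave none either. Of the NRF2 targets 24 of 25 were above 0, against 8737 of all 17129 tested genes. AKR1B10, an abundant reductase, stood at 0.19 (adjusted p = 0.42). Each ginger did differ from the vehicle in the integrated stress response, with 20 of 29 genes called higher for fresh ginger (2.25% of all tested genes) and 19 for dried ginger (2.91% of all). Vehicle and ginger libraries differ in the first number of the library code, which cannot be told apart from treatment. Among them ATF4 itself differed by 0.08 between the gingers (314 against 297 CPM, adjusted p = 1). TRPV1, the channel that gingerols and capsaicin open, stood at 10.5 and 10.8 CPM with fresh and dried ginger.

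**Figure D4:**
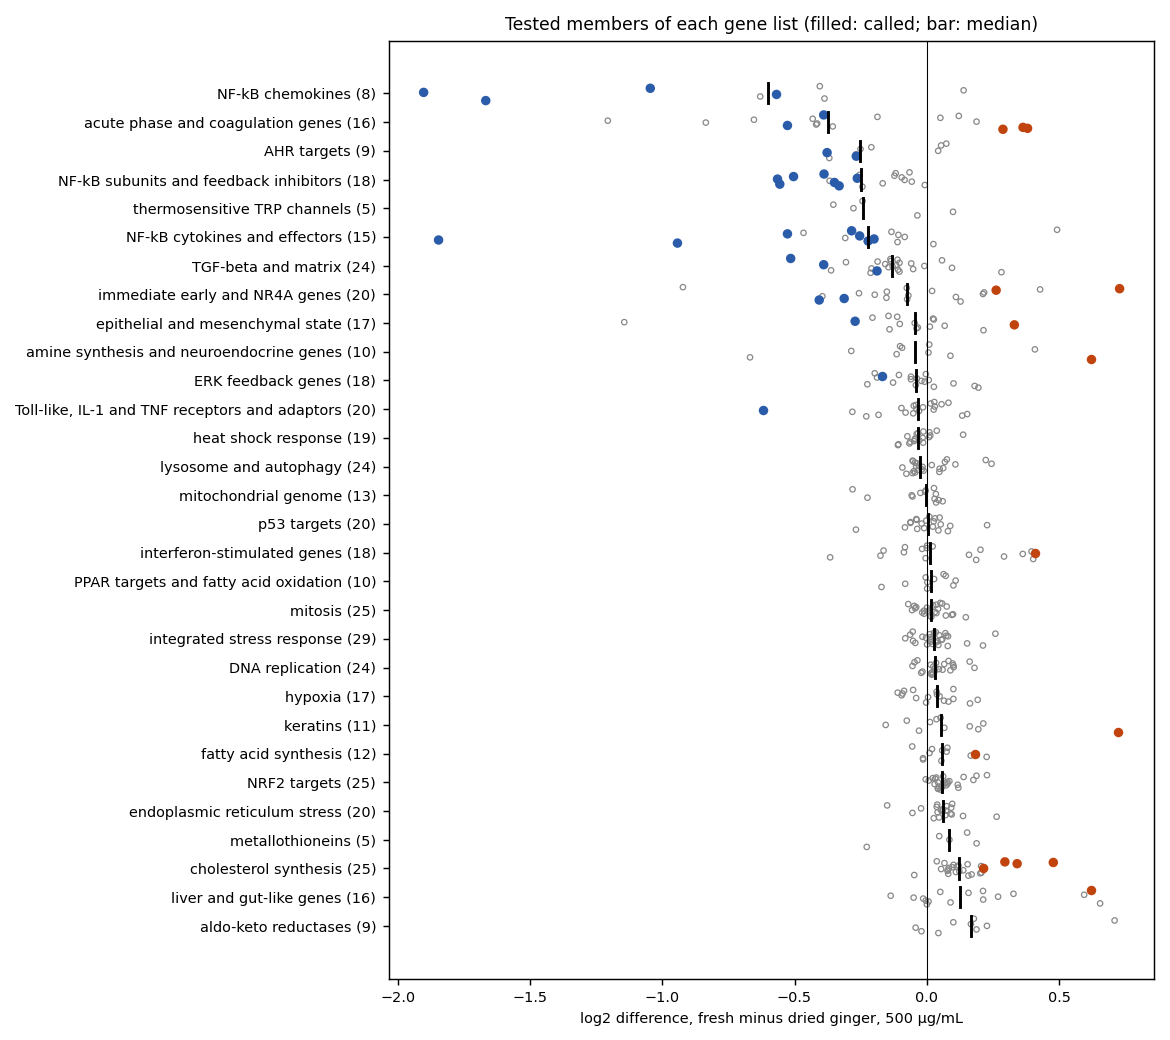
Log2 difference, fresh minus dried ginger at 500 µg/mL, of every tested member of each gene list (points, with the number tested in brackets) and the list's median (bar). Filled points were called; the NF-kB chemokines lie farthest to the left, with a median of -0.60, and most other medians lie near 0.

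At 100 and 20 µg/mL few genes passed the test. At 100 µg/mL KRT4 was called higher with fresh ginger (log2 difference 0.36, adjusted p = 0.0483), which is 0.00584% of genes, and none was called lower (0%); DESeq2 called 2, and 651 genes had an unadjusted p under 0.05. The KRT4 call at 100 µg/mL was lost without any one of fresh replicates 1, 2 and 3 or dried replicates 2 and 3, and in the fit of the 18 ginger libraries. At 20 µg/mL no gene was called by edgeR or DESeq2 (0%), with 732 at an unadjusted p under 0.05 in edgeR. If no gene differed, a share of 0.05 of all tested genes would be expected there. Both 651 and 732 lie below that share, while 1110 at 500 µg/mL lies above it. Without dried replicate 3 at 20 µg/mL, 3 genes were called and 2549 had an unadjusted p under 0.05, and with only the compared libraries the numbers were 1 and 188. Dried replicate 3 and fresh replicate 2 at 20 µg/mL are 2 of the 3 libraries of lowest length slope among the 60 (0.879 and 0.893, against 0.996 to 1.04 at 500 µg/mL). This slope is how steeply log2 CPM rises with the log2 length of the transcript. The next lowest slope, in a library of another herbal extract, was 0.907, so no gap sets the 3 apart. Without the 3 libraries of lowest slope 3 genes were called at 20 µg/mL. Over genes, the log2 difference correlated with transcript length at 0.215 at 100 µg/mL, -0.199 at 20 µg/mL and -0.0795 at 500 µg/mL (Spearman). The libraries at these doses are separate from those at 500 µg/mL. Of the 67 genes lower at 500 µg/mL, 60 were below 0 at 100 µg/mL (89.6%, against 49.7% of all tested genes) and 48 at 20 µg/mL (71.6%, against 52%). Of the 55 higher genes, 47 were above 0 at 100 µg/mL (85.5%, against 50.3% of all) and 25 at 20 µg/mL (45.5%, against 48%). In the 3 NF-kB lists 36 of 41 genes were below 0 at 100 µg/mL and 28 at 20 µg/mL, with medians of -0.07 and -0.04. CXCL8 differed by -0.53 and -0.32 at these doses and CCL2 by -0.48 and -0.00, and none of these 4 differences was called.

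Whether the ginger difference itself changed with dose was tested as the difference at 500 µg/mL minus the difference at 20 µg/mL. There 24 genes were called (0.14%), 14 higher (0.0817%) and 10 lower (0.0584%). The 4 with the smallest p in the lower direction were CXCL5 (-0.46, SE 0.07, adjusted p = 0.00117), BIRC3 (-0.49, SE 0.08, adjusted p = 0.00157), CCL2 (-1.04, SE 0.20, adjusted p = 0.00661) and IRAK2 (-0.58, SE 0.12, adjusted p = 0.015). In the higher direction they were KRT4 (0.60, SE 0.10, adjusted p = 0.00128), the kinase SGK1 (0.31, adjusted p = 0.00128), the surface protein CD24 (0.40, adjusted p = 0.0018) and INSIG1 (0.44, adjusted p = 0.00188). Without dried replicate 2 at 20 µg/mL CCL2 had an adjusted p of 0.076. IRAK2 lost its call without fresh replicate 1 or 3 or dried replicate 1 at 500 µg/mL, or without dried replicate 1 or 2 or fresh replicate 3 at 20 µg/mL (adjusted p from 0.0501 to 0.153). The other 6 kept theirs without any one library. In the fit of the 18 ginger libraries alone none of these differences between doses was called, while DESeq2 on all libraries called 37. The fit of the 18 libraries had 675 genes at an unadjusted p under 0.05, and the edgeR fit of all 60 libraries had 955. The count of 24 fell to between 12 and 14 without fresh replicate 1, 2 or 3 or dried replicate 2 at 500 µg/mL, and without dried replicate 2 or fresh replicate 3 at 20 µg/mL.

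Against the vehicle, fresh ginger at 500 µg/mL gave 690 called genes (4.03%), 386 higher (2.25%) and 304 lower (1.77%). Dried ginger gave 916 (5.35%), 498 higher (2.91%) and 418 lower (2.44%). The 690 dropped to between 426 and 455 without vehicle replicate 1 or 2 or fresh replicate 1 or 2. Both comparisons share the 3 vehicle libraries, so their agreement is no result. Vehicle and ginger libraries also differ in the first number of the library code, which cannot be told apart from treatment in any comparison with vehicle. The comparisons also share their ginger libraries with the one between the gingers, so the following counts describe where the called genes lie. Of the 67 genes lower with fresh ginger, 43 were called higher than vehicle for dried ginger and 3 lower, while for fresh ginger 7 were called higher and 14 lower. Of the 55 genes higher with fresh ginger, 33 were called lower than vehicle for dried ginger and 2 higher, while for fresh ginger 16 were called higher and 11 lower. In the 3 NF-kB lists 23 of 41 genes were called higher and 2 lower for dried ginger, and 3 higher and 2 lower for fresh ginger.

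Side by side, CXCL8 lay above vehicle by 2.38 on the log2 scale for dried ginger (adjusted p = 7.99e-12) and by 0.48 for fresh ginger (adjusted p = 0.401). CCL2 lay above by 1.34 for dried (adjusted p = 3.01e-10) and 0.29 for fresh ginger (adjusted p = 0.351), and ICAM1 stood at 1.51 (adjusted p = 1.7e-05) and -0.34 (adjusted p = 0.688). CXCL5 lay above vehicle for both, by 0.90 for dried (adjusted p = 1.31e-18) and 0.34 for fresh ginger (adjusted p = 8.31e-06). Over all tested genes, 2.25% were called higher than vehicle for fresh and 2.91% for dried ginger. Of 9 tested AHR targets, 4 were called higher than vehicle and none lower for each ginger. Among them was CYP1B1, above vehicle by 1.44 for dried (adjusted p = 1.08e-22) and 1.18 for fresh ginger (adjusted p = 6.04e-19). Another was TIPARP, above by 1.07 for dried (adjusted p = 5.78e-15) and 0.70 for fresh ginger (adjusted p = 7.24e-09). KRT4 lay below vehicle by 0.87 for dried ginger (adjusted p = 2.43e-13) and stood at -0.15 for fresh ginger (adjusted p = 0.271). A few genes passed the test for fresh ginger and not for dried: DDC at 0.44 (adjusted p = 0.00065) and -0.18 (adjusted p = 0.301), TM4SF20 at 0.49 (adjusted p = 7e-08) and 0.03 (adjusted p = 0.882), and INSIG1 at 0.48 (adjusted p = 7.11e-09) and 0.14 (adjusted p = 0.135). NKILA lay below vehicle by 1.02 for fresh ginger (adjusted p = 2.17e-07) and stood at -0.35 for dried ginger (adjusted p = 0.0901).

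**Figure D5:**
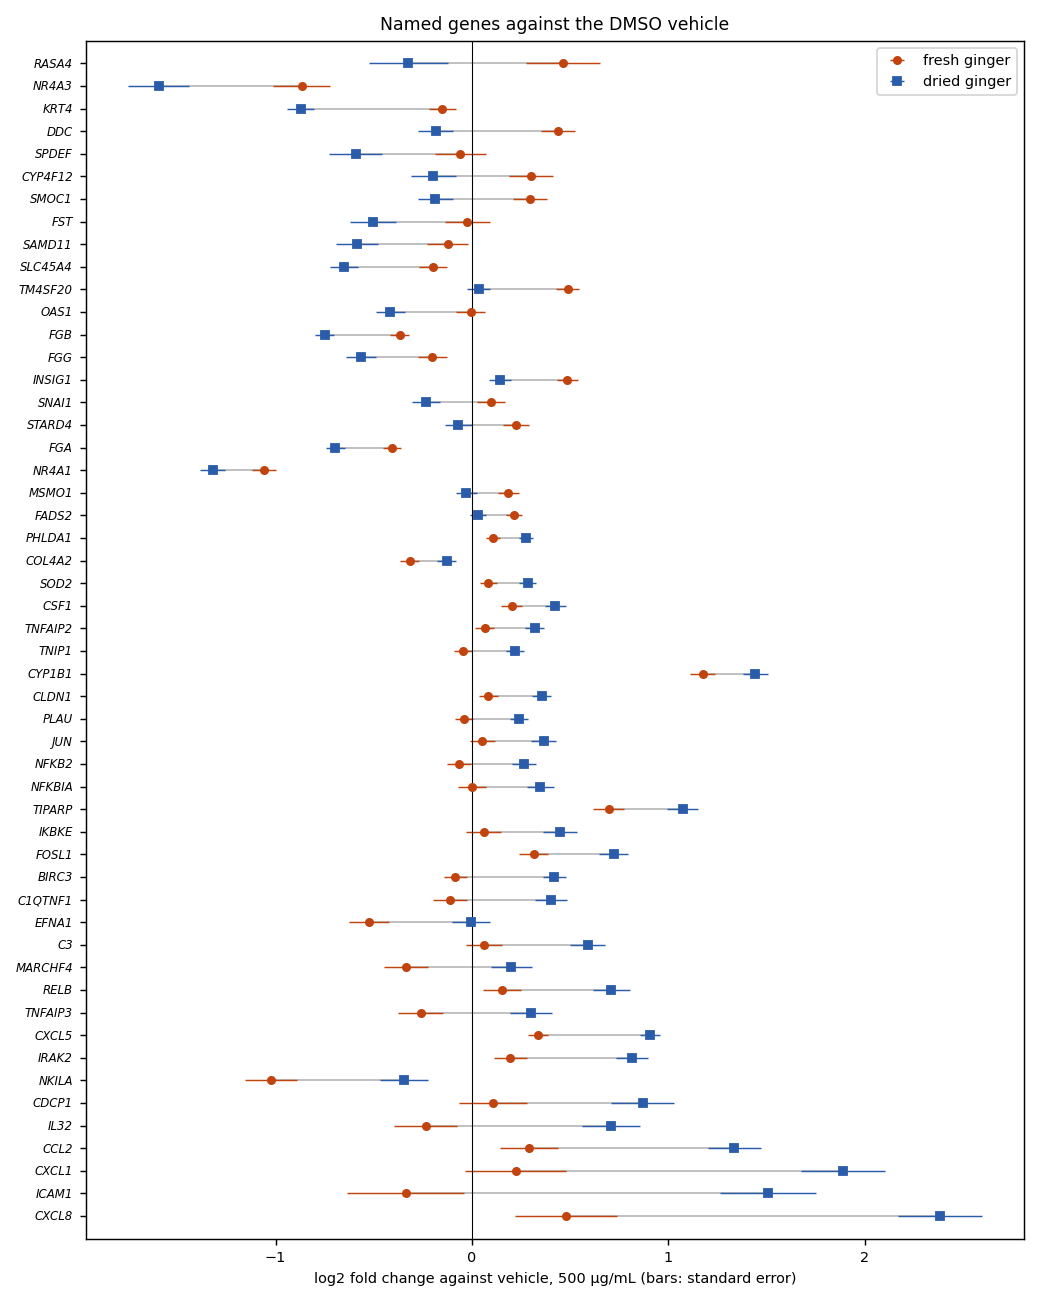
Log2 fold change against the DMSO vehicle (x axis, bars are standard errors) of 52 named genes with fresh (orange circles) and dried ginger (blue squares) at 500 µg/mL, ordered by the difference between the gingers. Both share the 3 vehicle libraries, which differ from the ginger libraries in the first number of the library code. CXCL8, ICAM1 and CXCL1 at the foot lie far right for dried ginger (2.38, 1.51 and 1.89) and near 0 for fresh ginger (0.48, -0.34 and 0.22).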

How the data were processed

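RNA of A549 cells was sequenced from a directional mRNA library in 60 libraries. The deposited values are estimated counts per gene, which the authors made on hg38; the submitters' processing notes name RSEM 1.3.3, STAR 2.7.3a, Trim Galore 0.6.5 and FastQC 0.11.9. The sources leave the annotation release and strand setting unstated. Another 209 columns of the deposited table match no sample here and were left aside. Values were rounded to integers before testing; 3679 of 60675 identifiers have no gene name in the tables used, hold 0.0681% of counts and stayed in the fit. Genes were kept by edgeR's filterByExpr. One edgeR 4.0.16 quasi-likelihood model (TMM scaling, robust, R 4.3.3, limma 3.58.1) was fitted to all 20 groups with no covariate, with Benjamini-Hochberg adjustment over 17129 genes at 0.05; DESeq2 1.42.0 was an alternative. The SE is the absolute log2 difference divided by the square root of F. CPM are scaled to TMM-adjusted library sizes, except marker sums, which are scaled to plain totals. Named genes were the 12 largest called differences in each direction at mean log2 CPM of at least 1 with groups separated, all called list members, and up to 2 abundant uncalled members per list; at other doses and for the dose difference, up to 4 per direction by p. Members and lists were chosen with earlier results of these data known. On simulated counts for the comparison at 500 µg/mL, 82% of 100 genes changed 1.5-fold and 90% of 100 changed 2-fold were recovered, with 11 others called, among 17058 genes. The changed genes were taken from those with a mean above 1 CPM, so recovery below that level was not measured. Counts were drawn independently for each library, with no effect shared by a library's genes. The alternatives covered scaling, filter, tool, libraries fitted, replicate block, transcript length slope and leaving out each library. Some genes that met the rule are not reported here.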

Additional observations from a re-analysis of the deposited data

Results flagged for a closer look

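Of 24 genes called in the test of the dose difference, 17 are given: those among the named genes and the 4 with the smallest p in each direction. EdgeR's test of the ginger difference at 500 µg/mL minus that at 20 µg/mL took its spread from all 20 groups. By that test the difference between fresh and dried ginger was called as changed between these doses for these 17 genes. It was larger in the higher direction at 500 µg/mL for KRT4 by 0.60 on the log2 scale (adjusted p = 0.00128), DDC by 0.57 (0.0382), SLC45A4 by 0.44 (0.0499), INSIG1 by 0.44 (0.00188), TM4SF20 by 0.42 (0.0124), CD24 by 0.40 (0.0018), FGB by 0.34 (0.0122), MSMO1 by 0.33 (0.0382), SGK1 by 0.31 (0.00128) and FADS2 by 0.26 (0.0382). In the lower direction it was -1.58 for CXCL8 (0.0163), -1.04 for CCL2 (0.00661), -0.99 for IL32 (0.0325), -0.58 for IRAK2 (0.015), -0.49 for BIRC3 (0.00157), -0.46 for CXCL5 (0.00117) and -0.32 for PLAU (0.0152). KRT4, SGK1, CD24, INSIG1, CXCL5 and BIRC3 stayed past the threshold without any one of the 12 libraries of these groups. CCL2 missed it without dried replicate 2 at 20 µg/mL (0.076). CXCL8 missed it without replicate 1 of either ginger at 20 µg/mL (0.24 for fresh, 0.122 for dried), or without dried replicate 2 (0.0839) or fresh replicate 3 (0.14) at 500 µg/mL. TM4SF20 missed it without fresh replicate 1 (0.0721) or dried replicate 2 (0.0799) or 3 (0.0617) at 500 µg/mL, or fresh replicate 3 at 20 µg/mL (0.0834). FGB missed it without fresh replicate 1 (0.126) or dried replicate 2 (0.0883) or 3 (0.108) at 500 µg/mL, or fresh replicate 1 (0.104) or 3 (0.0838) at 20 µg/mL. IRAK2 missed it without any one of 6 libraries, and DDC, FADS2, IL32, MSMO1, PLAU and SLC45A4 without any one of 8 to 10. None was called in the fit of the 18 ginger libraries alone, with the replicate block within them, or with only the libraries of the groups compared.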

How the results depend on the processing

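Of the 55 named genes, 24 kept their call in the alternatives run for them (15, but 14 for ICAM1, which has no adjusted p from DESeq2) and 0 reversed. With only the 18 ginger libraries 22 of 55 lost it, and 29 with the replicate block within them. For the comparison at 500 µg/mL, 122 genes became 58 with only the 18 ginger libraries, 39 with the replicate block within them, 344 with transcript length slope as covariate, and 73 to 108 leaving out 1 library. At 100 µg/mL, 1 gene became 0 with DESeq2's size factors, with the replicate block, with that block within the 18 ginger libraries and with those libraries alone, 2 with DESeq2, 8 with the length slope, 64 without the filter, and 0 to 1 leaving out 1 library. At 20 µg/mL, 0 became 100 without the filter, 1 with only the compared libraries, 7 with the length slope, 3 without the 3 libraries of lowest length slope, and 0 to 3 leaving out 1 library, 3 being without dried replicate 3. The dose difference, 24, became 0 with only the compared libraries, with the 18 ginger libraries and with the block within them, 37 with DESeq2, 112 without the filter, 210 with the length slope, and 12 to 27 leaving out 1 library. Against vehicle, 690 for fresh ginger became 1075 with only the compared libraries, 1495 with the length slope and 426 to 559 leaving out 1 library; 916 for dried ginger became 2001 with the length slope and 618 to 733 leaving out 1 library. The cause of these changes was not tested. Deviations from the group mean in same-numbered fresh and dried libraries at 500 µg/mL correlated at -0.031, -0.001 and 0.013 over the tested genes. Over the 45 same-numbered pairs of ginger libraries they ranged from -0.306 to 0.184. Such correlations cannot show whether same-numbered libraries share an effect on part of the genes. Over all 60 libraries the replicate block also called 122 genes, 120 of them shared. Within the 18 ginger libraries the block called 39, against 58 without it. Genes near 1 CPM rest on few counts, which limits the precision of ICAM1, CXCL8, CXCL1, TNFRSF9 and DYSF.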
